A study of Homo sapiens with 14 samples.

Results

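The regions described here are exon-exon junctions that lie inside the coding sequence of human messenger RNAs, and the stretch just upstream of them where the exon junction complex is placed. The rule took 1 transcript per gene, the one of highest mean RPKM among those scored in all 4 profiles with a length equal to the annotation, and kept junctions whose exons on both sides were at least 60 nt long. It found 5941 coding junctions in 1358 genes, of 64717 exon-exon junctions in all matched transcripts of the series. Of these, 5900 junctions in 1353 genes had at least 10 of 13 positions scored in both windows of all 4 profiles and were measured, and 41 were not. A gene held a median of 3 of these junctions and at most 39, and the mean RPKM (reads normalized for transcript length and library size, a level per length) of the transcripts ran from 6.33 to 1963 with a median of 17.7.

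The exon junction complex is left on spliced mRNA by the spliceosome, a short and fixed distance upstream of each junction and without regard to sequence. Its core is the RNA helicase EIF4A3, which clamps the RNA, the RBM8A (Y14) and MAGOH pair, which locks the helicase in place, and CASC3. It recruits export and splicing factors, ribosomes strip it from coding sequence in the first round of translation, and a complex left downstream of a stop codon triggers nonsense-mediated decay. The window from -30 to -18 nt, counted upstream from the last base of the exon as -1, is called the site below, and the window from -50 to -38 nt is called the upstream window. A junction counted as coding by its own position, so the windows can reach into a UTR. All of -50 to +50 nt was coding at 5351 of the measured junctions.

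K562 is an established line from a chronic myelogenous leukemia with erythroid features. NAI-N3, an acylating reagent, modifies the 2'-hydroxyl of flexible nucleotides (icSHAPE), and NAz-N3, activated by light, modifies solvent-exposed purines at C8 (icLASER). For icSHAPE, 3 libraries came from K562 cells (in vivo) and 2 from K562 RNA that had been isolated and refolded outside cells (in vitro), each treated with 100 mM NAI-N3 for 5 min, and 3 were DMSO controls. For icLASER, there were 2 libraries in vivo and 2 in vitro, in which NAz-N3 was added as a 1 M solution before 10 min under UV, and 2 controls that saw no UV. The authors pooled these 14 libraries into 1 profile per reagent and condition, so the in vivo and in vitro profiles of a reagent share their control, no value has a replicate, read depth per score was not given, and no test was run. A value after ± is the SD over junctions, which is a spread between sites and not an error of the measurement. Of 14 erythroid marker genes, 13 had a transcript in some profile and 12 in all 4, and none of 4 lymphoid markers had one.

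The sequences of junctions that the single-site results turn on are given first, as the last 30 nt of the exon from 5' to 3' with the 13 nt of the site in capitals (GENCODE release 44 transcripts, GRCh38, coordinates of the capitals). With 1 junction taken per gene, the first 4 are among the 5 with the lowest mean in vivo minus in vitro difference over both reagents of the 353 junctions of 125 genes with a mean RPKM of at least 100 and all 26 positions scored.
TMSB4X coding junction 1, chrX:12976332-12976344, + strand: AAGAGAAAAATCCactgccttccaaagaaa
HSP90AA1 coding junction 8, chr14:102083810-102083822, - strand: TTCTATGAGCAGTtctctaaaaacataaag
RPL9 coding junction 5, chr4:39454881-39454893, - strand: GAAATGACATTGAgcttgtttcaaattcag
TAGLN2 coding junction 2, chr1:159920347-159920359, - strand: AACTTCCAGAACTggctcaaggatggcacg

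The next 3 had the highest icLASER difference under the same limits, and the last is from an mRNA of the complex itself.
RPS24 coding junction 1, chr10:78033875-78033887, + strand: TTGGCTGTCTGAAgatagatcgccatcatg
ATP5MK coding junction 1, chr10:103392388-103392400, - strand: AACTCTTATACTCtcacaggtagaatgaac
RPS21 coding junction 3, chr20:62387885-62387897, + strand: TATGCTATCTGCGgggccattcgtaggatg
MAGOH coding junction 3, chr1:53228889-53228901, - strand: TGGTTCCCTTATTgatgtcaatcaatccaa

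Over the 5900 junctions, the site had a lower mean score than the upstream window in each profile. In icSHAPE the mean enrichment score was 0.190 ± 0.121 at the site and 0.201 ± 0.116 upstream in vivo, and 0.158 ± 0.139 against 0.171 ± 0.136 in vitro. In icLASER it was 0.163 ± 0.123 against 0.167 ± 0.119 in vivo and 0.170 ± 0.139 against 0.186 ± 0.137 in vitro. The score runs from 0 to 1, so these differences are small beside the spread between junctions, in cells and in refolded RNA.

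To hold the local bases constant, each score was taken relative to the mean score of the same base with the same neighbours on both sides over all coding positions of the 1501 chosen transcripts, in the same profile. On this base-adjusted scale, the site minus the upstream window was -0.0118 ± 0.133 in icSHAPE in vivo and -0.0131 ± 0.142 in vitro, an in vivo minus in vitro difference of 0.00126 ± 0.137. For icLASER it was -0.00264 ± 0.120 in vivo and -0.0148 ± 0.128 in vitro, a difference of 0.0121 ± 0.115. The same mean over all 753088 pairs of 13 nt windows, 20 nt apart in the coding part of 1 exon of the same transcripts, was -0.00578 in icSHAPE in vivo, -0.00563 in icSHAPE in vitro, -0.00261 in icLASER in vivo and -0.00603 in icLASER in vitro, and in vivo minus in vitro it was -0.000159 and 0.00342. So the junctions were lower than the average pair in 3 profiles and at its level in icLASER in vivo. Neither reagent had a mean base-adjusted score at the site that was lower in cells than in refolded RNA relative to the upstream window. Without the adjustment for bases the in vivo minus in vitro differences were 0.00131 and 0.0122. The windows differed little in composition: their G and C content averaged 50.5%, and the site was higher by 0.299 percentage points.

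**Figure D1:**
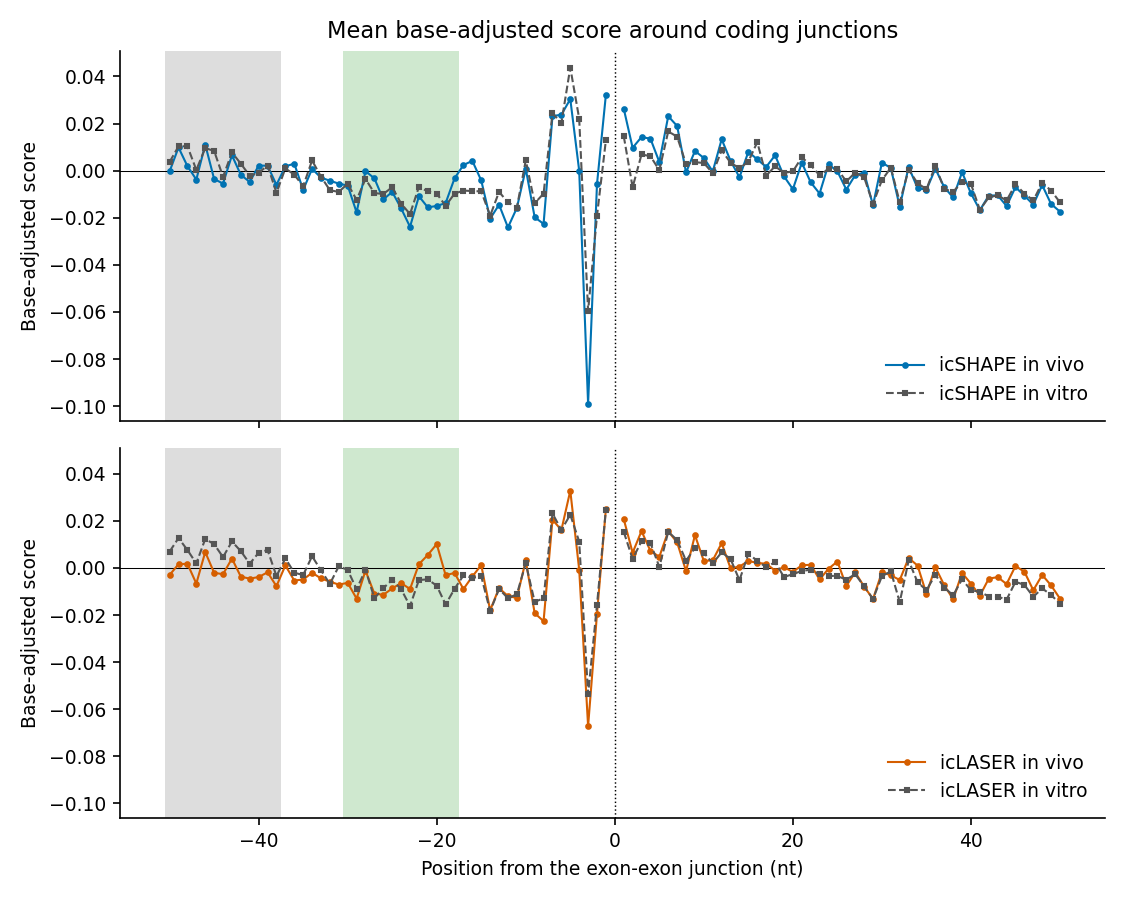
Mean base-adjusted score (y axis, score units, 0 is the mean of the same trinucleotide in all coding positions) at each position from -50 to +50 nt of the coding junctions (x axis) for icSHAPE (top) and icLASER (bottom), in vivo (solid) and in vitro (dashed). The upstream window is grey and the site green; the lowest value in every profile is at -3, -0.0990 in icSHAPE in vivo.

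Single junctions ranged far more widely than the means. A site lower or higher than its upstream window by at least 0.1 base-adjusted units was counted, and the same count over all 753088 window pairs served as background. In icSHAPE in vivo 1402 junctions (23.8%) were lower, beside 21.7% of all pairs, and 1142 (19.4%) were higher, beside 19.3%. In icSHAPE in vitro 1396 (23.7%) were lower, beside 20.6%, and 1047 (17.7%) higher, beside 18.8%. In icLASER in vivo 929 (15.7%) were lower, beside 15.5%, and 916 (15.5%) higher, beside 14.5%. In icLASER in vitro 1150 (19.5%) were lower, beside 16.7%, and 818 (13.9%) higher, beside 14.9%. The excess of low sites over the background was therefore small, and smallest in icLASER in vivo.

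For the in vivo minus in vitro difference, 1193 junctions (20.2%) in icSHAPE were lower in cells by at least 0.1, beside 20.5% of all pairs, and 1201 (20.4%) were higher, beside 20%. Both shares were near the background. In icLASER 767 junctions (13%) were lower in cells, beside 14.5%, and 1078 (18.3%) were higher, beside 15.7%. Of the junctions lower in cells, 207 were lower with both reagents. They are 17.4% of those lower in icSHAPE, beside 13% of all junctions lower in icLASER. They are 27.0% of those lower in icLASER, beside 20.2% of all junctions lower in icSHAPE. Of the junctions higher in cells, 309 were higher with both. They are 25.7% of the icSHAPE set, beside 18.3% of all junctions, and 28.7% of the icLASER set, beside 20.4%. The overlap over all window pairs was not counted. The differences of the 2 reagents, which have separate controls, had a Pearson r of 0.131 across the 5900 junctions. Those points share transcripts and base content and are no replicates, and so weak a relation is no finding.

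**Figure D2:**
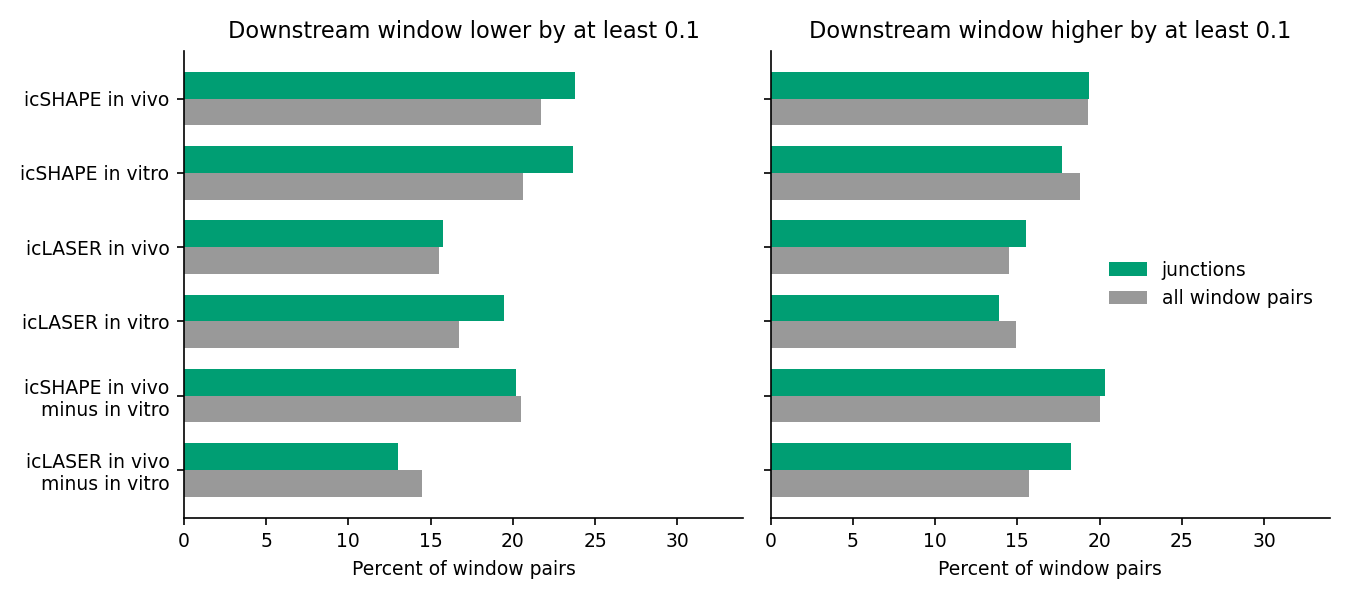
Percent of window pairs (x axis) in which the downstream window, the site at junctions, was lower (left) or higher (right) by at least 0.1 base-adjusted units, for the 5900 junctions (green) and all 753088 window pairs in coding exons (grey). In icLASER in vivo minus in vitro, 13% of junctions were lower beside 14.5% of all pairs, and 18.3% were higher beside 15.7%.

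Position by position, the base-adjusted icLASER profile in cells rose above that of refolded RNA at the proximal end of the site. The highest in vivo minus in vitro differences in base-adjusted score of the 100 positions were 0.0177 at -20, 0.0124 at -19 and 0.0104 at -21. The lowest, of similar size, lay outside the site: -0.0136 at -3, -0.0121 at -45 and -0.0119 at -4. From -24 to -18 the mean was 0.00911, where the icLASER score was 0.167 in vivo and 0.168 in vitro, against -0.00838 from -50 to -38, where it was 0.167 and 0.185. Farther downstream the icLASER difference was 0.000971 from +18 to +30 and 0.00397 from +38 to +50 of the next exon, close to the 0.00380 of the whole site. Therefore the sign of the site's contrast depended on which side it was compared with. With +38 to +50 as reference the icLASER in vivo minus in vitro value was -0.000387, and with coding positions over 50 nt from every junction it was 0.00257. The window -24 to -18 was chosen after the values were seen.

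In icSHAPE the same window was -0.00226, and the in vivo minus in vitro values at -21, -20 and -19 were -0.00676, -0.00523 and 0.00117. On the base-adjusted scale icSHAPE was higher in cells just downstream of the site, by 0.00943 from -17 to -15, and over the first bases of the next exon, by 0.0108 from +1 to +4. On the same scale the difference from -7 to -4 was -0.00829, although the score itself was 0.229 in vivo and 0.204 in vitro. Its lowest base-adjusted differences at single positions were at -3, at -0.0394, and -4, at -0.0220, and its highest was -1, at 0.0193.

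**Figure D3:**
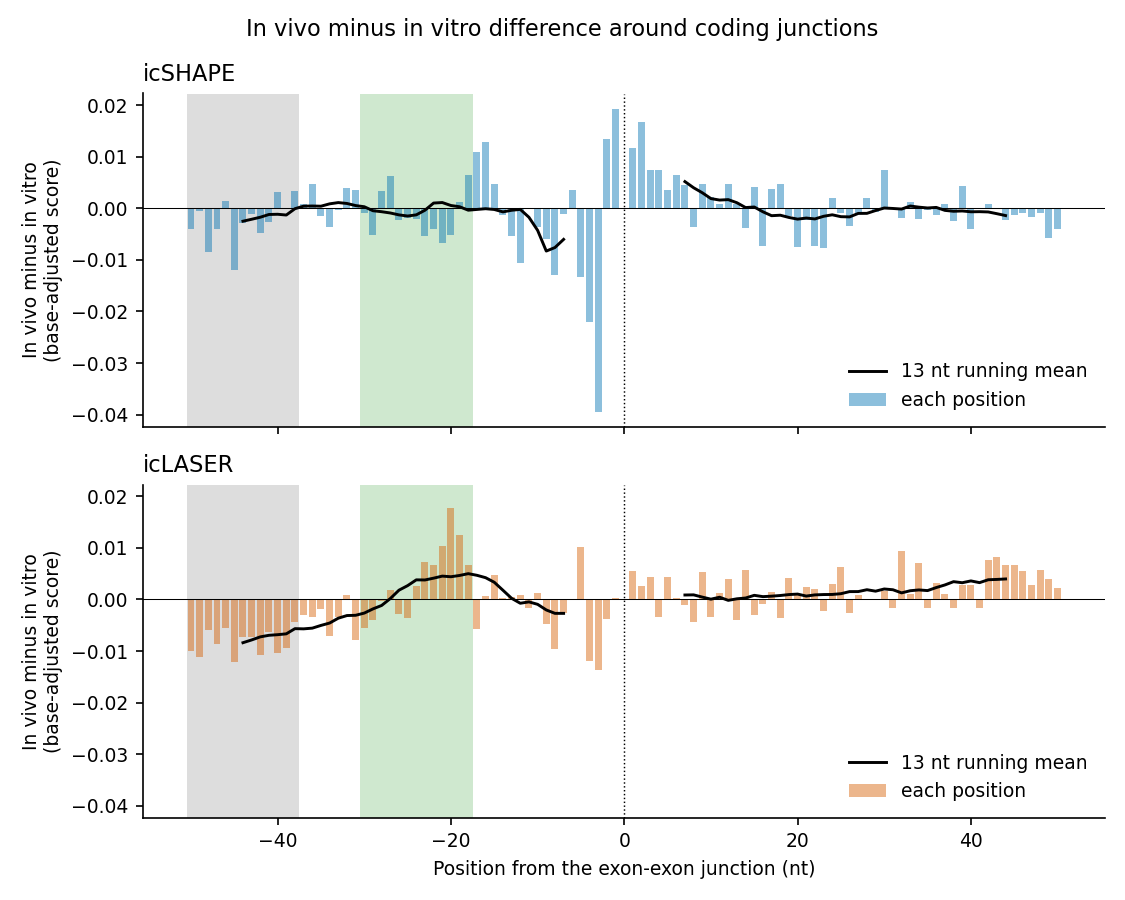
In vivo minus in vitro difference of the mean base-adjusted score (y axis) by position from the junction (x axis, nt) for icSHAPE (top) and icLASER (bottom); bars are positions, the line is a 13 nt running mean on each side, grey is the upstream window and green the site. The highest icLASER bar is 0.0177 at -20 and the lowest icSHAPE bar is -0.0394 at -3.

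The icLASER difference was largest at purines, the bases that NAz-N3 modifies. Site minus upstream, in vivo minus in vitro, it was 0.0227 for G and 0.0158 for A, beside 0.00424 for C and 0.00426 for U. From -24 to -18 alone the in vivo minus in vitro value was 0.0194 for G, 0.0122 for A, 0.00398 for C and -0.000885 for U. The G values in the score itself were 0.297 at the site and 0.307 upstream in vivo, and 0.330 and 0.362 in vitro, so in cells G lost less between the upstream window and the site than in refolded RNA. The icLASER score at the site in vivo was lower at the other bases, 0.145 for A, 0.0849 for C and 0.114 for U. The differences by base are in score units and were not scaled to these levels. In icSHAPE the same differences by base lay between -0.00427 for U and 0.00321 for A.

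The largest features of the profile sat on the junction itself. Exon ends carry the remnant of the splice site consensus: the last 2 bases of the exon and the first of the next were AGG at 1629 junctions (27.4%) and AGA at 776 (13.1%). At -3 the base-adjusted mean was -0.0990 in icSHAPE in vivo, -0.0596 in icSHAPE in vitro, -0.0672 in icLASER in vivo and -0.0536 in icLASER in vitro. The same bases elsewhere in coding exons, over 50 nt from a junction, gave like values. At CAGG across the junction, 618 sites, the icSHAPE score at the C was 0.106 in vivo and 0.117 in vitro, and at 2172 other CAGG it was 0.104 and 0.123. In icLASER it was 0.0494 in vivo and 0.0695 in vitro at junctions, and 0.0586 and 0.0656 elsewhere. At AAGG, with 615 junctions and 2142 other places, the icSHAPE score at the first A was 0.213 in vivo and 0.226 in vitro, beside 0.235 and 0.260 elsewhere.

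At the first base of the next exon, in CAGG the icSHAPE score at the first base after the junction was 0.204 in vivo and 0.128 in vitro, beside 0.157 and 0.111 at that base of the motif elsewhere. In AAGG it was 0.232 and 0.146, beside 0.201 and 0.139. In icLASER it was 0.274 in vivo and 0.283 in vitro at CAGG junctions, beside 0.256 and 0.276 elsewhere, and 0.339 and 0.342 at AAGG junctions, beside 0.318 and 0.310. So this base had a higher score at junctions in all 4 profiles and in both motifs. The same held at +3, outside the motif. There icSHAPE in vivo was 0.206 at junctions and 0.179 elsewhere for CAGG, and 0.235 and 0.176 for AAGG. Positions outside the motif, where the bases were not matched, differed by more or by less. At -6 before AAGG icSHAPE in vivo was 0.347 at junctions and 0.272 elsewhere. At -4 before AAGG icLASER was 0.217 in vivo and 0.251 in vitro at junctions and 0.302 and 0.348 elsewhere. At -4 before CAGG icSHAPE in vivo was 0.111 at junctions and 0.113 elsewhere.

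Predicted pairing did not set the windows apart. With the 100 nt on each side of the junction folded, the mean probability of being unpaired was 0.425 ± 0.160 at the site and 0.425 ± 0.158 upstream, and it was 0.429 ± 0.159 from +18 to +30.

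The position of the junction in the coding sequence went with the level of the contrast in both conditions. Genes with a single junction, 158 of them, had the lowest site minus upstream values, -0.0833 in icSHAPE in vivo, -0.0629 in icSHAPE in vitro, -0.0534 in icLASER in vivo and -0.0632 in icLASER in vitro. The 3742 inner junctions, which have another coding junction on each side, were at -0.00414, -0.00611, 0.00558 and -0.00787. The 1072 last junctions lay between, at -0.0270, -0.0280, -0.0154 and -0.0289. In vivo minus in vitro, icLASER gave 0.00572 at 928 first junctions, 0.0135 at inner and 0.0135 at last ones, and 0.00981 at single ones, while icSHAPE gave 0.00235, 0.00198, 0.00100 and -0.0204.

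Intron length went with the same levels. At 2688 junctions with an intron under 1 kb the icSHAPE in vivo contrast was -0.00452, at 2856 with 1 to 10 kb it was -0.0166, and at 356 with over 10 kb it was -0.0286. The in vitro values, -0.00803, -0.0170 and -0.0200, ran in the same order. The icLASER in vivo minus in vitro difference was 0.0121, 0.0127 and 0.00830 in these groups. By expression it was 0.0159 in the lowest of 3 groups by RPKM, 0.0108 in the middle and 0.00978 in the highest, and in 3 groups by base content it was 0.0168 at the lowest G and C content, 0.00801 in the middle and 0.00930 in the highest. Its mean was above 0 in each group listed, as it was over all window pairs (0.00342). With introns over 10 kb its median was -0.00364. Junctions of 201 genes whose chosen transcript is annotated as a target of nonsense-mediated decay, 464 in all, had site minus upstream values of -0.0477 in icSHAPE in vivo and -0.0349 in vitro, beside -0.00878 and -0.0112 at the 5436 of protein-coding type.

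Junctions outside coding sequence were measured the same way, with the bases adjusted by the coding means. Whether the complex was present at any junction was not tested. The 816 measured junctions in 3' UTRs had an in vivo minus in vitro value of -0.00261 ± 0.128 in icSHAPE and 0.00947 ± 0.112 in icLASER. The 435 in 5' UTRs had -0.00389 ± 0.152 and 0.00572 ± 0.131, and 2626 junctions of noncoding transcripts had 0.00306 ± 0.137 and 0.00916 ± 0.109. The coding junctions had 0.00126 and 0.0121. The icLASER mean was above 0 in each class, with its lowest value in 5' UTRs, and the icSHAPE mean was below 0 in both UTRs. All these means are small beside the spread between junctions. Site minus upstream in icSHAPE, the 5' UTR junctions were at -0.0414 in vivo and -0.0375 in vitro, lower than the coding ones. Behind these values the icLASER levels differed: in vivo minus in vitro the site was at 0.0243 in 3' UTRs, at -0.0206 in 5' UTRs, at 0.0209 in noncoding transcripts and at 0.00380 in coding sequence, and the upstream window moved with it, at 0.0141, -0.0254, 0.0116 and -0.00838.

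The mRNAs of the complex and of factors around it were described by the lists. Of the core genes, RBM8A with 5 junctions and MAGOH with 1 had members; EIF4A3, MAGOHB and CASC3 had none. Relative to refolded RNA, 1 of these 6 was lower and 3 were higher in cells by at least 0.1 in icSHAPE, and 1 was lower and 2 higher in icLASER. Over all coding junctions these shares were 20.2% lower and 20.4% higher in icSHAPE and 13% lower and 18.3% higher in icLASER. RBM8A (mean RPKM 24.6) ran in both directions: icSHAPE in vivo minus in vitro was 0.160, 0.108, -0.0703, -0.0506 and 0.294 at coding junctions 1 to 5, and icLASER was -0.167, 0.251, -0.0870, 0.165 and 0.0400. Junction 2 is held by only 1 of the 8 annotated RBM8A transcripts that cover it. At RBM8A junction 1 the site scored higher than the upstream window in icSHAPE, 0.599 against 0.147 in vivo and 0.649 against 0.367 in vitro. In icLASER it scored 0.486 against 0.493 in vivo and 0.712 against 0.541 in vitro. MAGOH (28.2) had 0.176 at the site and 0.531 upstream in icSHAPE in vivo, and 0.114 and 0.188 in vitro, a difference of -0.290. Its icLASER values were low throughout, 0.0849 and 0.0762 in vivo and 0.0573 and 0.134 in vitro, a difference of 0.0846.

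The list of complex periphery and nonsense-mediated decay factors held 25 junctions of 3 genes, 21 of them in SMG5, which takes part in dephosphorylating the decay factor UPF1. In icSHAPE 4 (16%, beside 20.2% of all junctions) were lower and 5 (20%, beside 20.4%) higher in cells, and in icLASER 6 (24%, beside 13%) were lower and 8 (32%, beside 18.3%) higher, with medians of -0.00781 and 0.00474 beside -0.00295 and 0.00865 over all junctions. The first junction of SAP18, of the ASAP complex that joins the exon junction complex, had an icLASER difference of 0.165 and an icSHAPE difference of -0.0676. Its icLASER scores were 0.278 at the site and 0.153 upstream in vivo, and 0.156 and 0.186 in vitro.

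Among mRNA export factors, 13 junctions of DDX39A, DDX39B, THOC7 and SARNP had medians of -0.0746 in icSHAPE and 0.0568 in icLASER, with 3 lower and 1 higher in the first and 2 lower and 5 higher in the second. These are 23.1% and 7.69% in icSHAPE, beside 20.2% and 20.4% of all junctions, and 15.4% and 38.5% in icLASER, beside 13% and 18.3%. DDX39B, the helicase that loads export factors, had at its second junction icSHAPE scores of 0.177 at the site and 0.119 upstream in vivo and 0.121 and 0.209 in vitro, a difference of 0.136. Its icLASER scores were 0.261 and 0.111 in vivo and 0.253 and 0.258 in vitro, a difference of 0.144. The chosen DDX39B transcript is annotated as a target of nonsense-mediated decay.

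SR proteins, the splicing activators, had 27 junctions in 8 genes with medians of 0.0217 in icSHAPE and 0.0473 in icLASER, and in icSHAPE 3 were lower and 8 higher in cells, and in icLASER 1 was lower and 9 higher. These are 11.1% and 29.6% in icSHAPE, beside 20.2% and 20.4% of all junctions, and 3.70% and 33.3% in icLASER, beside 13% and 18.3%. SRSF3 junction 1 had the highest icSHAPE difference of the genes named here, 0.541. There the upstream score was lower in cells, 0.414 in vivo and 0.806 in vitro, and the site was higher, 0.255 and 0.113. In icLASER the upstream window was high in both conditions, 0.814 and 0.849, and the site was 0.243 and 0.157.

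The 3 other lists were larger or of unrelated function. Ribosomal protein genes had 184 measured junctions in 69 genes, with medians of -0.00311 in icSHAPE and 0.0158 in icLASER. In icSHAPE 25 (13.6%) were lower and 24 (13%) higher in cells, beside 20.2% and 20.4% of all junctions, and in icLASER 11 (5.98%) were lower and 22 (12%) higher, beside 13% and 18.3%. All 4 shares were below those of all junctions. So were those of the highest of the 3 groups of coding junctions by RPKM. There 17.4% were lower and 18.3% higher in icSHAPE, and 9.62% and 13.9% in icLASER. Proteasome subunits had 104 junctions in 20 genes, with medians of -0.00245 and 0.0132, 22 (21.2%) lower and 17 (16.3%) higher in icSHAPE, beside 20.2% and 20.4% of all junctions, and 6 (5.77%) lower and 15 (14.4%) higher in icLASER, beside 13% and 18.3%. Glycolysis enzymes had 37 junctions in 8 genes, with medians of -0.0153 and 0.0133, 3 (8.11%) lower and 9 (24.3%) higher in icSHAPE and 5 (13.5%) lower and 6 (16.2%) higher in icLASER. LDHA, lactate dehydrogenase A, had a mean of 0.165 over 5 junctions in icSHAPE and -0.0514 in icLASER, and PSMB3, a proteasome beta subunit, had -0.125 and -0.0216 at junction 2, the one nearest the middle of its coding sequence. The chosen PSMB3 transcript is annotated as a target of nonsense-mediated decay.

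**Figure D4:**
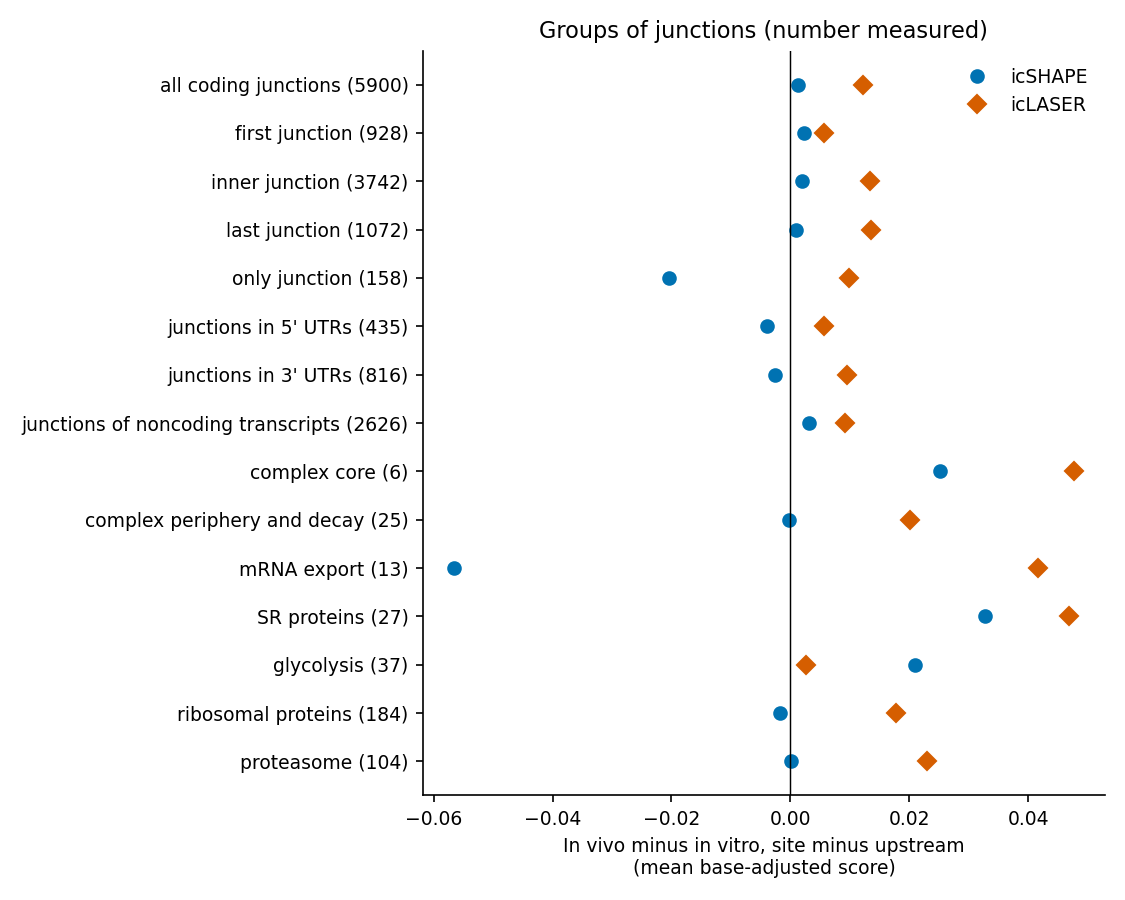
Mean in vivo minus in vitro difference of the site minus the upstream window (x axis, base-adjusted score) for groups of coding junctions, for junctions outside coding sequence and for gene lists (y axis, number measured in brackets), icSHAPE as circles and icLASER as diamonds. No error is drawn because no profile has a replicate; over all coding junctions the values are 0.00126 and 0.0121, and groups of under 40 junctions scatter most.

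The most abundant mRNAs did not share 1 direction. RPLP1, a stalk protein of the large ribosomal subunit and the gene of highest level (1963 RPKM), had at junction 2 icSHAPE scores of 0.0402 at the site and 0.0347 upstream in vivo and 0.0829 and 0.288 in vitro. Its icLASER scores were 0.195 and 0.269 in vivo and 0.0783 and 0.0696 in vitro. The icSHAPE difference of 0.215 came from the upstream window, which was reactive in refolded RNA alone, and the icLASER difference was -0.0998. At RPL32 junction 2 the site was at 0.0340 in vivo and 0.0299 in vitro in icSHAPE, below 0.206 and 0.284 upstream. RPL19 junction 4 went the other way, with 0.263 and 0.138 at the site and 0.0502 and 0.0322 upstream. Over the 12 genes of highest RPKM, the icSHAPE in vivo minus in vitro difference ran from -0.0617 at RPL12 to 0.215 at RPLP1, and the icLASER one from -0.127 at RPL12 to 0.0594 at EEF2, the elongation factor of translocation.

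The fetal globin genes HBG1 and HBG2 had sites near 0 in every profile. HBG1 had 0.00562 in vivo and 0.00900 in vitro in icSHAPE and 0.00300 and 0.000769 in icLASER, below upstream values of 0.363, 0.412, 0.166 and 0.118. HBG2, which has the same last 30 exon bases, had 0.0170, 0.0127, 0.00569 and 0.00192 below 0.592, 0.657, 0.328 and 0.233. The junction is held by 1 of 3 covering transcripts in each gene, and reads of near-identical copies may have been split between them, so these values are uncertain. EEF2 junction 1 is likewise held by 1 of 2 covering transcripts.

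The junctions with the lowest values in cells are given as a description, since the difference itself chose them. TMSB4X encodes thymosin beta 4, which binds actin monomers, and its single coding junction was lowest over both reagents, -0.379 in icSHAPE and -0.268 in icLASER. In icSHAPE the site scored 0.197 in vivo and 0.548 in vitro, with 0.185 and 0.171 upstream, and in icLASER 0.245 and 0.401, with 0.200 and 0.0928 upstream. In the run of purines from -30 to -21, the icSHAPE score at -30 was 0.118 in vivo and 0.937 in vitro, and at -26 it was 0.0730 and 1. The icLASER score at -27 was 0.236 and 0.814. At -22 the site stayed reactive in all 4 profiles, with 0.997, 1, 0.600 and 0.846.

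HSP90AA1, the inducible cytosolic chaperone, had at junction 8 differences of -0.200 and -0.225. Its site was high in refolded RNA, 0.647 in icSHAPE and 0.777 in icLASER, and lower in cells, 0.339 and 0.173. The upstream window was lower in cells too, 0.0955 against 0.208 and 0.0164 against 0.410. At -23 the score was 1 in vitro with both reagents and 0.319 and 0.371 in vivo. Junction 5 of the same mRNA had the lowest icSHAPE difference of the 353 junctions, -0.434, with a site at 0.116 in vivo and 0.876 in vitro, while in icLASER the site stayed high, 0.743 and 0.892, and the difference was 0.188.

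HNRNPA1, a splicing repressor, had -0.327 in icSHAPE at junction 7 with the site at 0.200 in vivo and 0.468 in vitro, and -0.0333 in icLASER. At its junction 2 the order was the opposite one, 0.0158 in icSHAPE and -0.355 in icLASER, where the site scored 0.172 in vivo and 0.631 in vitro. RPL9, of the large ribosomal subunit, had -0.207 and -0.106, and TAGLN2, an actin-binding protein, had -0.177 and -0.116. At RPL9 the upstream window was higher in cells, 0.331 against 0.137 in icSHAPE and 0.409 against 0.216 in icLASER, and its site was 0.117 against 0.129 and 0.241 against 0.152. At TAGLN2 the site was lower in cells, 0.238 against 0.414 and 0.186 against 0.301. So of the 5 junctions lowest over both reagents, 4 had a lower site in cells with both, and RPL9 did not. At HNRNPA1 junction 7 the icLASER site was only slightly lower, 0.130 in vivo and 0.139 in vitro. The difference itself chose these junctions, so a lower site was favoured by the choice.

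At the highest icLASER differences the upstream window was lower in cells. RPS24, of the small ribosomal subunit, had 0.363 at junction 1, where the upstream window scored 0.211 in vivo and 0.635 in vitro and the site 0.146 and 0.220. At 6 positions from -49 to -43 its in vitro icLASER score was 1 and the in vivo score ran from 0 to 0.938. The RPS24 exon ends in ATG at this junction, so both windows would be 5' UTR if translation starts there. ATP5MK, a small subunit of ATP synthase, had 0.308 with an upstream window of 0.147 in vivo and 0.403 in vitro and a site of 0.125 and 0.0538, and RPS21 had 0.259 with an upstream window of 0.109 and 0.289 and a site of 0.163 and 0.0881, so the site was higher in cells in both. Their icSHAPE differences were 0.0282 for RPS24, -0.0667 for ATP5MK and 0.0137 for RPS21. Of the 3 highest icSHAPE differences, 0.348 was at RPS10-NUDT3 junction 6 and 0.296 at RPL36A-HNRNPH2 junction 4, whose transcripts read through from a ribosomal protein gene into its neighbour and share reads with it, and 0.294 was at RPL7A junction 4. The RPL7A upstream window was at 0.0965 in vivo and 0.345 in vitro, with a site at 0.0597 and 0.0315.

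**Figure D5:**
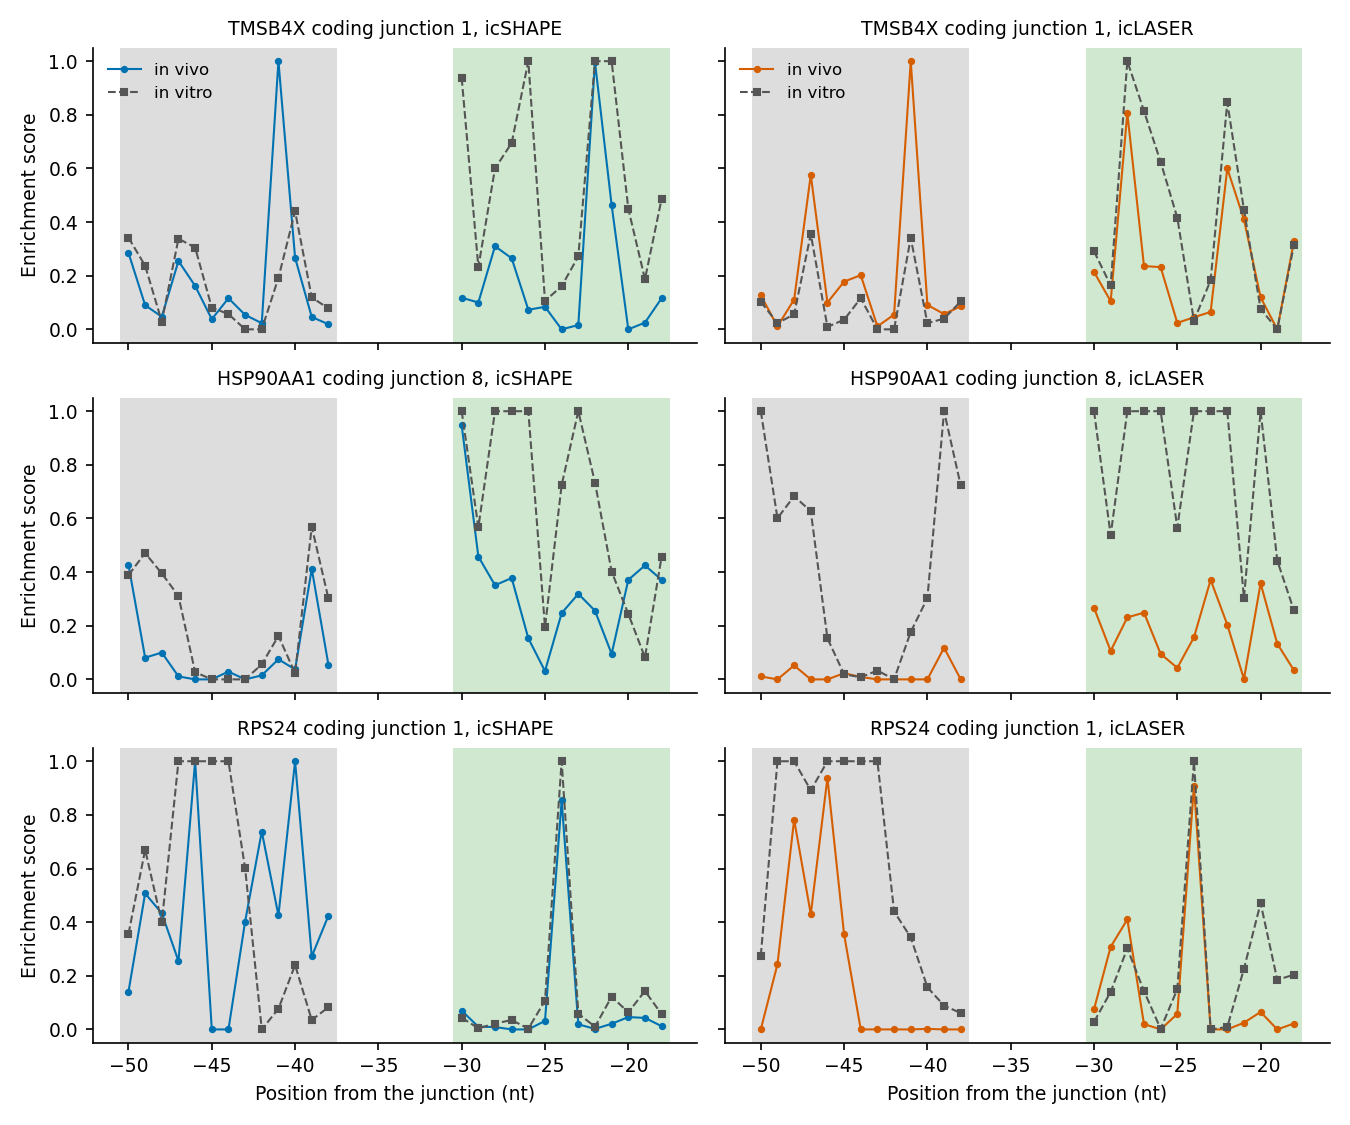
Enrichment score (y axis, 0 to 1) at each nucleotide of the upstream window (grey) and the site (green) by position from the junction (x axis, nt) at 3 junctions (rows), icSHAPE left and icLASER right, in vivo solid and in vitro dashed. At TMSB4X and HSP90AA1 the dashed line lies above the solid one over most of the site, and at RPS24 it does so in the upstream window in icLASER.

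Just inside and outside the 60 nt limit, junctions whose shorter exon had 60 to 69 nt, 623 of them, gave in vivo minus in vitro values of -0.0125 in icSHAPE and 0.0120 in icLASER, and 514 with 50 to 59 nt gave 0.00166 and 0.0157. The chosen transcript was the annotation's canonical one in 66 of the 1358 genes. Of the 5941 junctions, 3084 were held by every annotated transcript of the gene that covers them, and 444 by at most 1 in 4.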

How the data were processed

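K562 RNA was probed with NAI-N3 (icSHAPE) or NAz-N3 (icLASER) in cells and after refolding. The authors aligned reads to the Ensembl release 88 transcriptome (GRCh38) and ran the icSHAPE pipeline without a minimum of hit coverage; Trimmomatic and Bowtie2 are named in the submitters' processing notes, with versions not given in the sources used here. They deposited RPKM per transcript, normalized for length and library size, and per nucleotide an enrichment score of reagent over control, scaled from 0 to 1. Each of the 4 profiles pools 2 or 3 libraries and shares its control with the other condition of the same reagent.

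Exons, coding sequence, transcript type and bases came from GENCODE release 44 (Ensembl 110), where identifier and length matched. The chosen transcripts numbered 1501 genes. Window means needed 10 of 13 scored positions in all 4 profiles. Base-adjusted scores subtract the mean of the same trinucleotide in the same profile. Pairing was predicted with ViennaRNA 2.7.2; other values used Python 3.11.15 and numpy 2.4.6, drawn with matplotlib 3.10.9. The measure was tested on simulated scores with planted differences. No test was run, since no profile has a replicate; SDs run over junctions. Depth is unknown, so no interval is given.

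Members and lists were chosen with earlier results of these data known. Named junctions were, with all 26 positions scored: those of the 12 genes of highest RPKM, each by the junction nearest the middle of its coding sequence; for each reagent the 3 lowest and 3 highest differences, and the 5 lowest means of both reagents, at a mean RPKM of at least 100 and 1 per gene. The core genes of the complex and the gene of highest RPKM of each list were added. SMG5 and LDHA, the other list members named without values, the windows -24 to -18, -17 to -15, -7 to -4 and +1 to +4, and the comparison of CAGG and AAGG were chosen after values were seen. The alternatives tried changed the base control, the summary, the transcripts and exons admitted, the windows, the position a score was assigned to and the scale. Of the junctions this rule names, 1 is not reported here, and the sequences of others are not shown.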

Additional observations from a re-analysis of the deposited data

How the results depend on the processing

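No paired analysis was possible because the deposited profiles pool the replicates; for the same reason no replicate could be left out. Each of the 6 mean contrasts was recomputed under 21 alternatives, of which 1, only transcripts typed protein_coding, was chosen after seeing the data. A value was taken as moved when it shifted by at least 0.01 score units. With +38 to +50 nt as the reference, the sign turned in all 4 profiles, to 0.000894 in vivo and 0.000561 in vitro for icSHAPE and 0.00266 and 0.00305 for icLASER, and in the icLASER in vivo minus in vitro value (-0.000387). The icLASER in vivo contrast also turned with all of -50 to +50 coding (0.00139), with junctions held by every covering transcript (0.00567) and with the canonical transcript (0.00137), and kept its sign in 17 of 21. Averaged by gene first, the contrast became -0.0234 in icSHAPE in vivo, -0.0142 in icLASER in vivo and -0.0258 in icLASER in vitro. With the canonical transcript, which left 471 junctions, icSHAPE in vitro was -0.000956. The causes were not tested. The other values moved by less than 0.01, which is about the size of the contrasts, so such a shift can still exceed 1.5 times. Counting every shift beyond 1.5 times or turn of sign, 5, 4 and 13 of 21 alternatives gave one for icSHAPE (in vivo, in vitro and their difference), and 11, 5 and 3 did for icLASER. With junctions held by every covering transcript icSHAPE in vivo was -0.00523, icSHAPE in vitro -0.00730 and icLASER in vitro -0.00809. With coding positions over 50 nt from every junction as reference icLASER in vitro was -0.00529 and icLASER in vivo minus in vitro 0.00257, and with the canonical transcript these were -0.00501 and 0.00638. Over the alternatives icSHAPE in vivo minus in vitro ran from -0.00741 to 0.00359, above 0 in 15 of 21, and icLASER in vivo minus in vitro ran from -0.000387 to 0.0148, above 0 in 20 of 21. A difference of the mean near 0.01 rests on pooled profiles of unknown depth, and nothing here tells it from variation between libraries.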
